A study of Homo sapiens with 16 samples.

Results

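MSI1, MSI2, SYNCRIP, IKZF2, IGF2BP1, IGF2BP2, IGF2BP3, LIN28B and ELAVL1 were followed in RNA-seq libraries of leukemia cells treated with a small molecule directed at Musashi. These 9 genes were taken by symbol from a table of 25221 genes, and each symbol matched 1 row. The libraries came from MOLM13, a human acute myeloid leukemia line of FAB class M5a (passages 8-12), and K562, a human line with erythroid features that was derived from a blast crisis of chronic myeloid leukemia (passages 12-18). Each line had 4 libraries from cells given DMSO and 4 from cells given Ro 08-2750 (Ro) at 20 µM for 4 h. Ro was dissolved in DMSO at 0.1% final, so the solvent was shared by both arms, and the labels number the libraries as pairs 1 to 4 in each line. Each line is a culture of established cells, and the labels do not say what the 2 libraries of a pair shared.

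MSI1 and MSI2 are the Musashi proteins, which bind UAG-containing elements in mRNAs through a pair of RNA recognition motifs and change how those mRNAs are translated. MSI2 is the family member known for supporting blood stem cells and myeloid leukemia, and SYNCRIP, an hnRNP-family protein that binds Musashi, is known for the same in leukemia. LIN28B binds precursors of the let-7 microRNAs and blocks their maturation, and let-7 in turn represses mRNAs that include LIN28B itself and the IGF2BP genes. The IGF2BP proteins and ELAVL1 (HuR) bind mRNAs and affect their stability, and IKZF2 (Helios) is an Ikaros-family transcription factor whose mRNA is known as a Musashi target in leukemia.

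The annotated 3′ UTRs of these genes hold the elements named above to unequal degrees, and the sequences that follow show the let-7 seed and, in LIN28B and the IGF2BP genes as known let-7 targets, its match nearest to the stop codon. The mature let-7a-5p sequence, from RefSeq (GRCh38.p14), is given with its seed, bases 2 to 8, in capitals.
hsa-let-7a-5p: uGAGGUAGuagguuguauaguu
In the UTR windows the capitals mark the match, CTACCTC, read 5′ to 3′ on the mRNA strand in DNA letters (GENCODE v29 transcripts, GRCh38).
LIN28B, chr6:105078817-105078843, plus strand: gttgcaaagtCTACCTCatgcaagtat
IGF2BP1, chr17:49051066-49051092, plus strand: gcgaagtaaaCTACCTCaaggtatgaa
IGF2BP2, chr3:185644211-185644237, minus strand: acagaagaagCTACCTCaggtgttttt
IGF2BP3, chr7:23311786-23311812, minus strand: ttttactcaaCTACCTCaggtattcag
LIN28B held 4 such matches in a 3′ UTR of 4549 bases and IGF2BP1 held 4 in 6206 bases. Among annotated 3′ UTRs within 20% of the same length, 23.4% and 29.4% held at least 1, and 0.206% and 0.6% held at least 4. IGF2BP2, IGF2BP3, SYNCRIP and ELAVL1 held 1 match each, beside 10.9%, 12.4%, 24.2% and 24.4% of 3′ UTRs of like length with at least 1. MSI1, MSI2 and IKZF2 held 0, where 10.9%, 24.3% and 36.3% of 3′ UTRs of like length held at least 1. Of all 19132 annotated 3′ UTRs, 9.57% held at least 1.

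The Musashi element was searched as GTAGT, a form of the UAG-containing element, also on the mRNA strand only, and its letters cannot overlap a let-7 match. The matches nearest to the stop codon in IKZF2, the Musashi target, and in MSI2 and SYNCRIP were these, with the match in capitals.
IKZF2, chr2:213006718-213006742, minus strand: taaactacagGTAGTtaagggccac
MSI2, chr17:57679840-57679864, plus strand: atcacatttgGTAGTgattttgact
SYNCRIP, chr6:85612020-85612044, minus strand: ttcagatattGTAGTtatttggatg
IKZF2 held 12 matches in 7669 bases, SYNCRIP 7 in 5097 and MSI2 5 in 5168. So short a motif was found in 98.7%, 94.2% and 94.0% of 3′ UTRs of like length, where the median number of matches was 5, 3 and 3. At least as many matches as in these genes were held by 4.24%, 9.51% and 28.9% of 3′ UTRs of like length. IGF2BP1, IGF2BP3 and LIN28B held 3 matches each, where the median of 3′ UTRs of like length was 4, 1 and 3. ELAVL1 held 2, where that median was 3, and IGF2BP2 and MSI1 held 0, where it was 1 for each. The shares of 3′ UTRs of like length with at least 1 match were 97.1%, 68.5%, 91.5%, 93.2%, 61.4% and 61.2% in that order. Of all 3′ UTRs, 45.6% held at least 1. These matches describe the letters only, and no binding was measured in these libraries.

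The libraries ranged from 3143129 to 43571060 counts. Levels are given as CPM, counts scaled to a common library size with TMM factors over all 16 libraries, and because the kit reads the 3′ ends of mRNAs, a count does not grow with transcript length. A count of 0 allows up to 3 counts, or 0.872 CPM in the smallest library and 0.067 CPM in the largest, which covers counting error only. The RNA-binding genes SRSF2 and TIA1 had 0 counts in every library, so they could not be tested, and the reason for this was not tested. Of 12 erythroid markers, 10 were higher in all 8 K562 libraries than in any MOLM13 library, and of 12 myeloid and monocytic markers, 7 were higher in all MOLM13 libraries. GATA1, the erythroid master regulator, had at most 2 counts in any MOLM13 library. The K562 DMSO library of pair 4 (4383241 counts) stood apart: for 60.2% of genes its value lay outside the range of the other 7 K562 libraries, so the line differences with DMSO and the K562 changes with Ro are also given without it. The smallest library, K562 DMSO of pair 2, lay outside the other 7 for 45.2% of genes. For the remaining K562 libraries this share ran from 4.88% (DMSO, pair 1) to 34.1% (Ro, pair 1). P-values measure the spread between libraries, which may be technical.

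**Figure D1:**
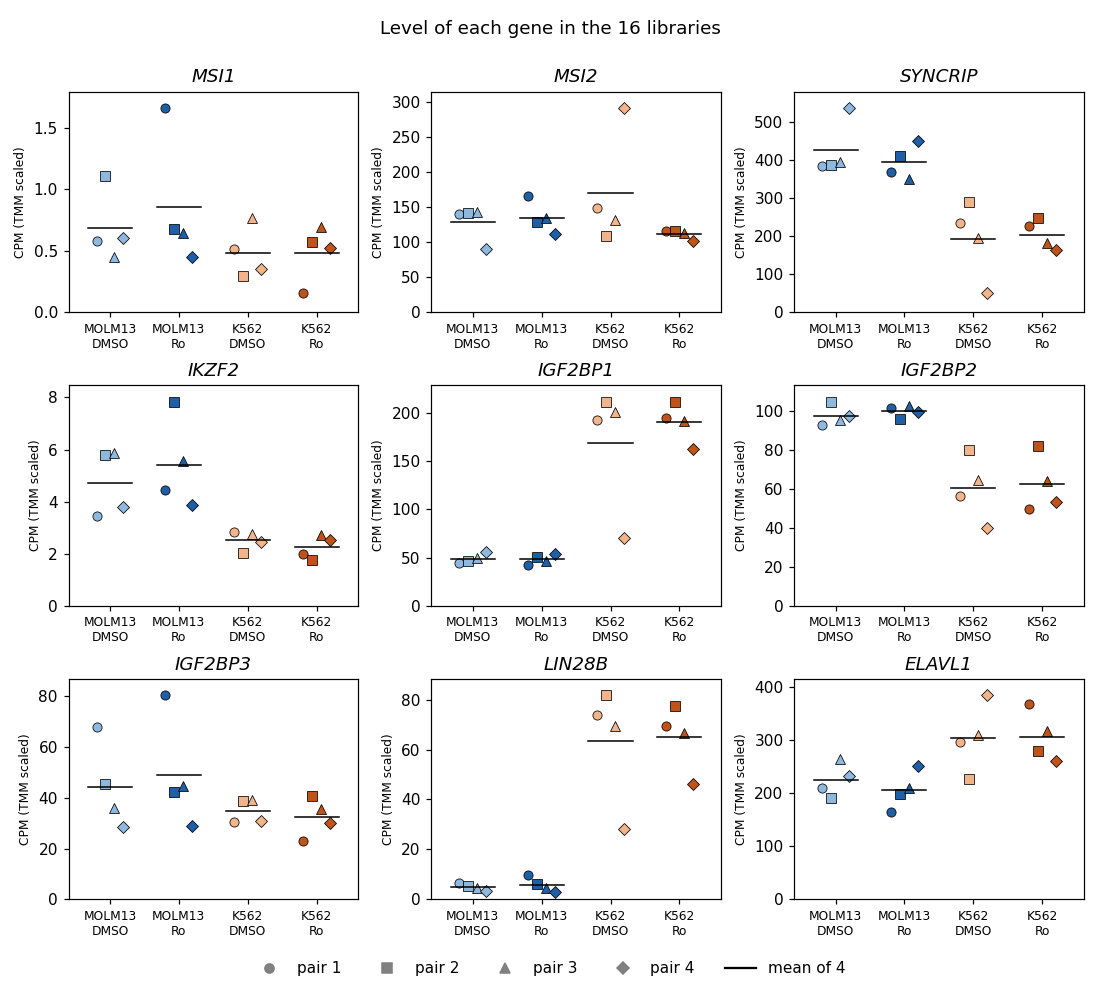
Level of each of the 9 genes in CPM (TMM scaled, linear axis from 0) in each library, with pairs as symbols and the mean of 4 as a line. LIN28B and IGF2BP1 sit higher in every K562 library than in any MOLM13 library, SYNCRIP, IGF2BP2 and IKZF2 sit lower, and the K562 DMSO library of pair 4 is the highest for MSI2 and the lowest for SYNCRIP.

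MSI2 (chr17:57255851-57701581, plus strand, GRCh38.p14, as for the genes that follow) was the more abundant Musashi mRNA by 3′ end counts. In MOLM13 its level was 140, 142, 142.3 and 90.6 CPM with DMSO and 165, 129, 134 and 112 CPM with Ro in pairs 1 to 4. In K562 it was 149, 108, 131 and 291 CPM with DMSO and 116, 116, 113 and 101 CPM with Ro. The groups overlapped, with the K562 DMSO library of pair 4 above all others and the MOLM13 DMSO library of pair 4 below all others. MSI1 (chr12:120339662-120369164, minus strand) was near the limit of counting, with 1 to 25 counts in any library and at most 1.66 CPM (MOLM13 Ro, pair 1), so a change in MSI1 was hardly detectable at this depth. The means of MSI2 were ordered K562 DMSO (170 ± 82.7 CPM, SD, n = 4), MOLM13 Ro (135 ± 22.4), MOLM13 DMSO (129 ± 25.4) and K562 Ro (111 ± 7.15), and the ranges of mean ± SD of neighbours in that order overlapped. Without the K562 DMSO library of pair 4 that mean was 129 ± 20.6 CPM (n = 3).

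SYNCRIP (chr6:85607784-85643870, minus strand), the Musashi partner, was higher in MOLM13. Its level in MOLM13 was 383, 388, 395 and 537 CPM with DMSO and 369, 409, 349 and 451 CPM with Ro. In K562 it was 235, 289, 196 and 49.9 CPM with DMSO and 225, 247, 181 and 162 CPM with Ro, so the 8 libraries of each line did not overlap. Between DMSO libraries K562 was 2.23-fold lower (log2 -1.16 ± 0.40, SE; adjusted p = 0.0319, edgeR quasi-likelihood test), and between Ro libraries it was 1.94-fold lower (log2 -0.96 ± 0.18; adjusted p = 0.000461). Without the K562 DMSO library of pair 4 the DMSO difference was smaller and its error narrower (log2 -0.84 ± 0.21, adjusted p = 0.00583). The adjusted p rose past 0.05 without MOLM13 DMSO library 1, 3 or 4 (0.0503, 0.0507 and 0.0716) or K562 DMSO library 1 or 3 (0.052 and 0.0727).

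IKZF2 (chr2:212999698-213152456, minus strand), the Musashi target, was low in both lines and lower in K562. MOLM13 libraries held 3.47, 5.80, 5.85 and 3.81 CPM with DMSO and 4.45, 7.84, 5.54 and 3.85 CPM with Ro. K562 libraries held 2.84, 2.03, 2.76 and 2.45 CPM with DMSO and 1.97, 1.76, 2.72 and 2.52 CPM with Ro, below every MOLM13 library. The difference was log2 -0.88 ± 0.27 between DMSO libraries (adjusted p = 0.0194, edgeR) and -1.26 ± 0.26 between Ro libraries (adjusted p = 0.00127), and the former rested on few counts (7 to 127 per K562 library). Without the K562 DMSO library of pair 4 the DMSO difference was log2 -0.86 (adjusted p = 0.0245), and without those of pairs 2 and 4 it was -0.79 (adjusted p = 0.0536). The adjusted p was 0.0651 without MOLM13 DMSO library 2 and 0.0702 without library 3. Of the 4 other Ikaros-family genes tested, IKZF1 (Ikaros, 3.89-fold), IKZF5 (4.14-fold) and IKZF3 (Aiolos, 2.16-fold) were also lower in K562 with DMSO and IKZF4 (Eos) was higher (2.30-fold). All 4 kept these directions and passed the test between Ro libraries and between DMSO libraries without the K562 library of pair 4. Of all genes tested, 41.3% passed between DMSO libraries, 54.3% between Ro libraries and 42.7% between DMSO libraries without that library.

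Of the IGF2BP genes, IGF2BP1 (chr17:48996558-49056145, plus strand) was higher in K562 and IGF2BP2 (chr3:185643130-185825042, minus strand) was higher in MOLM13. IGF2BP1 was 44.2, 45.9, 49.1 and 56.1 CPM in MOLM13 with DMSO and 42.2, 50.5, 46.7 and 53.7 CPM with Ro. In K562 it was 193, 212, 201 and 70.6 CPM with DMSO and 195, 212, 192 and 163 CPM with Ro, above every MOLM13 library even in the library that stood apart. K562 was 3.45-fold higher between DMSO libraries (log2 1.78 ± 0.31, adjusted p = 0.000357, edgeR) and 3.93-fold higher between Ro libraries (1.98 ± 0.16, adjusted p = 2.09e-07). The DMSO difference was log2 2.04 ± 0.17 without the K562 DMSO library of pair 4 (adjusted p = 1.23e-06).

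IGF2BP2 was the least variable of the 9 genes within MOLM13, from 92.7 to 105 CPM over the 8 libraries, and ran from 40.1 to 82.2 CPM over the 8 K562 libraries. It was 1.63-fold lower in K562 between DMSO libraries (log2 -0.70 ± 0.22, adjusted p = 0.0226, edgeR) and 1.60-fold lower between Ro libraries (-0.68 ± 0.17, adjusted p = 0.0045). Leaving out the K562 DMSO library of pair 4 gave a DMSO difference of log2 -0.56 (adjusted p = 0.0265). The adjusted p between DMSO libraries was 0.0584 without MOLM13 library 2 and 0.0762 without K562 library 1. IGF2BP3 (chr7:23310209-23470491, minus strand), which overlaps the protein-coding gene MALSU1 (up to 2103 counts), overlapped between the lines, at 28.5 to 80.3 CPM in MOLM13 and 23.1 to 40.9 CPM in K562, and did not pass the test (adjusted p = 0.316 with DMSO, 0.416 with DMSO without the K562 library of pair 4, and 0.0862 with Ro, edgeR). Without MOLM13 Ro library 4, IGF2BP3 was lower in K562 between Ro libraries by log2 -0.80 (adjusted p = 0.00916).

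LIN28B (chr6:104937026-105083332, plus strand) differed most between the lines among the 9 genes. MOLM13 libraries held 6.64, 5.27, 4.56 and 3.18 CPM with DMSO and 9.69, 6.28, 4.72 and 3.15 CPM with Ro. K562 libraries held 73.8, 81.7, 69.5 and 28.4 CPM with DMSO and 69.6, 77.3, 66.8 and 46.0 CPM with Ro, so the lowest K562 library was above the highest MOLM13 library. K562 was 13.1-fold higher between DMSO libraries (log2 3.72 ± 0.35, adjusted p = 1.43e-06, edgeR) and 11.1-fold higher between Ro libraries (3.47 ± 0.30, adjusted p = 5.73e-07). The DMSO difference was log2 3.96 ± 0.25 (adjusted p = 1.83e-07) with the K562 DMSO library of pair 4 left out. LIN28B-AS1, a long noncoding RNA gene that overlaps LIN28B, had at most 5 counts in any library, and whether the counting used strand is not given in the sources used here.

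ELAVL1 (chr19:7958573-8005641, minus strand) ran from 165 to 264 CPM in MOLM13 and from 226 to 383 CPM in K562, and the lines overlapped. It was 1.48-fold higher in K562 between Ro libraries (log2 0.57 ± 0.18, adjusted p = 0.015, edgeR), and between DMSO libraries the difference did not pass the test (0.43 ± 0.22, adjusted p = 0.143, and 0.29 with an adjusted p of 0.231 without the K562 DMSO library of pair 4). The Ro difference had an adjusted p of 0.0529 without MOLM13 Ro library 2. MSI2 did not pass the test between the lines with DMSO (log2 0.39, 95% interval -0.26 to 1.04, adjusted p = 0.325) or with Ro (-0.28, -0.62 to 0.066, adjusted p = 0.157). Without the K562 DMSO library of pair 4 the DMSO difference of MSI2 was log2 -0.0087, and without MOLM13 Ro library 4 the Ro difference was -0.38 (adjusted p = 0.0358).

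Counted together, 5 of the 9 genes passed the test between DMSO libraries, 2 of them higher in K562 and 3 lower, where 41.3% of all 15268 genes tested passed (20.3% higher and 21.1% lower). Without the K562 DMSO library of pair 4 it was again 2 higher and 3 lower, where 42.7% of genes passed. Between Ro libraries 6 of 9 passed, 3 higher and 3 lower, where 54.3% of 15346 genes did (27.5% higher and 26.8% lower). The median difference over the 9 genes was log2 -0.32 with DMSO and -0.60 with Ro, beside 0.0047 and -0.051 over all genes tested. The libraries of the lines did not overlap for 5 of the 9 genes, 2 of them higher in K562 and 3 higher in MOLM13, against 31.9% of all genes (16.1% and 15.9%). Total-count scaling in place of TMM raised the median difference of all genes by 0.40 between DMSO libraries and 0.28 between Ro libraries, and moved the share of calls higher in K562 from 49.1% to 71.2% and from 50.6% to 66.6%. LIN28B, IGF2BP1, SYNCRIP, IGF2BP2, IKZF2 and ELAVL1 kept their direction under it, whereas the small differences of MSI1 and IGF2BP3 with DMSO (0.031 and 0.079) and of MSI2 with Ro (0.012) changed sign. Under total-count scaling the test was no longer passed by SYNCRIP (log2 -0.79, adjusted p = 0.0925) and IKZF2 (-0.50, adjusted p = 0.195) with DMSO or by IGF2BP2 with DMSO (-0.31, adjusted p = 0.258) and with Ro (-0.39, adjusted p = 0.127), and ELAVL1 passed it with DMSO (0.86, adjusted p = 0.0114).

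**Figure D2:**
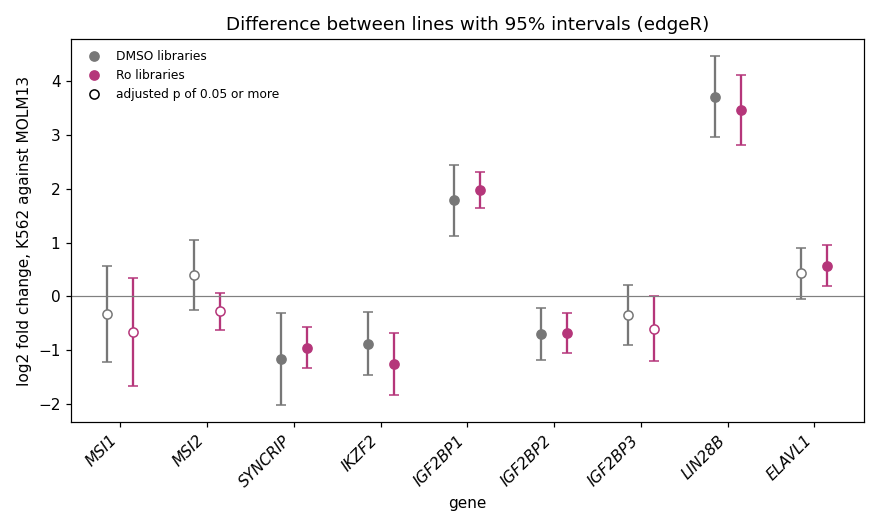
Log2 fold change of K562 against MOLM13 for each gene from edgeR, with 95% intervals, between DMSO libraries (grey) and between Ro libraries (magenta). Open points have an adjusted p of 0.05 or more. LIN28B (3.72 and 3.47) and IGF2BP1 (1.78 and 1.98) lie highest, and SYNCRIP, IKZF2 and IGF2BP2 lie below 0 in both.

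Lists of genes related to the 9 members are given with the share of all genes that passed between DMSO libraries, 41.3% (20.3% higher and 21.1% lower in K562), and the median of all genes, log2 0.0047. Of 12 genes on the LIN28 and let-7 side 5 passed, about that share. Of these HMGA1 (a chromatin protein, log2 1.49) and DGCR8 (a subunit of the microprocessor, 1.49) were higher in K562. HMGA2, a let-7 target whose level was 27.1 to 34.6 CPM in MOLM13, was at 0.379 to 1.11 CPM in K562 (log2 -5.27, adjusted p = 4.67e-09, edgeR), and ZCCHC6 (a let-7 uridylating enzyme, -1.10) and DICER1 (-0.95) were lower. The median difference of the list was log2 -0.12, and without the K562 DMSO library of pair 4 it had 2 higher and 4 lower. Of 7 mRNAs described as bound by IGF2BP proteins, 2 were higher (IGF2 and LIN28B, itself 1 of the 9 members) and 4 were lower. Among the lower were CD44 (log2 -4.50) and HMGA2, which is also on the LIN28 and let-7 list. The median of the 7 mRNAs was log2 -0.81, and without that library 2 were higher and 3 lower.

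Of 7 mRNAs named as Musashi targets, 1 was higher in K562 with DMSO, SMAD3 (log2 1.59), and 5 were lower (median log2 -0.90, and 1 and 4 without the K562 DMSO library of pair 4). HOXA9, a leukemia-associated homeobox factor, had 0 counts in all 8 K562 libraries and 33.7 to 76.9 CPM in MOLM13, and CDKN1A (p21) was at 2.20 to 6.63 CPM in K562 and 41.3 to 206 CPM in MOLM13. Of 10 Hu-family and AU-rich element binding genes tested, ELAVL3 (log2 1.82) and ZFP36L1 (1.99) were higher in K562 and 4 were lower, among them ZFP36 (tristetraprolin, -2.44) and the Hu gene ELAVL4 (-1.60). Of 26 other RNA-binding and RNA-modifying genes tested, 2 were higher, led by CPEB4 (2.15), and 6 were lower, led by CELF2 (-2.88), a smaller share than among all genes between DMSO libraries. The median of the Hu and AU-rich list was log2 -0.32 and that of the RNA-binding list -0.086. Without the K562 DMSO library of pair 4 the Hu and AU-rich list had 2 higher and 3 lower, and the RNA-binding list had 4 higher and 5 lower with a median of 0.028. The related genes named here with a log2 difference all kept their direction and passed the test without it. Between Ro libraries, where 54.3% of all genes passed, 8 of the 26 RNA-binding genes were higher and 6 lower. There the Musashi targets had 1 higher and 4 lower, and the Hu and AU-rich list 2 and 4. The LIN28 and let-7 list had 2 higher and 4 lower there, and the mRNAs bound by IGF2BP proteins 1 and 4.

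The Ro comparison asked whether the compound changed the mRNA of these genes within 4 h. In MOLM13 0 of the 9 genes passed the test, and 0% of 15031 genes did (edgeR; 175 genes had an unadjusted p under 0.05, and DESeq2 called 1). With the pair as a block 317 genes (2.11%) passed, 0.938% higher and 1.17% lower with Ro, and still 0 of the 9. The median change over the 9 genes was then log2 0.09, beside 0.0016 over all genes. The block adjusted p of the members ran from 0.428 to 0.998. In K562 0 of 9 and 0% of 15227 genes passed without the block (187 under an unadjusted p of 0.05) and with it (322), and DESeq2 with the block called 2.

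In MOLM13 the block intervals bound the change of the more abundant members. MSI2 changed by log2 0.09 (95% interval -0.073 to 0.25), SYNCRIP by -0.087 (-0.23 to 0.058), IGF2BP1 by 0.00037 (-0.15 to 0.16) and IGF2BP2 by 0.048 (-0.10 to 0.20). ELAVL1 changed by -0.11 (-0.28 to 0.052) and IGF2BP3 by 0.13 (-0.039 to 0.30). The less abundant LIN28B (0.21, -0.089 to 0.52), IKZF2 (0.18, -0.13 to 0.48) and MSI1 (0.096, -0.64 to 0.83) had wider intervals. None of the 9 moved in the same direction in all 4 MOLM13 pairs, beside 25.1% of all genes (10.2% higher and 14.9% lower).

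The pairs of MOLM13 differed by more than the arms for some members. LIN28B and IGF2BP3 were highest in pair 1 and lowest in pair 4 both with DMSO and with Ro. IGF2BP3 was 67.9 and 80.3 CPM in pair 1 and 28.5 and 28.7 CPM in pair 4. MSI2 was lowest and SYNCRIP highest in pair 4 of both arms.

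In K562 MSI2 had the largest change and the smallest p among the 9 genes (log2 -0.60 ± 0.28, unadjusted p = 0.0491, adjusted p = 1, edgeR), and it was lower with Ro in 3 of 4 pairs. The changes by pair were -0.36, 0.10, -0.22 and -1.53, and the last came from the DMSO library that stood apart. Without that library and without the block the change was -0.21 ± 0.15 (adjusted p = 1), and with pairs 1 and 3 alone and the pair as a block it was -0.30 (adjusted p = 0.0536, beside 418 genes called in that fit). The sign of 4 members, none past the test, turned without that library. SYNCRIP went from 0.094 to -0.22, IGF2BP1 from 0.18 to -0.077, IGF2BP2 from 0.059 to -0.084 and LIN28B from 0.041 to -0.20. These values are from the fit without the block. With the block and all 4 pairs, SYNCRIP was 0.30, IGF2BP1 0.28, IGF2BP2 0.066 and LIN28B 0.12.

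IKZF2 in K562 changed by log2 -0.20 in the fit without the block (95% interval -0.74 to 0.33, and -0.23 without the DMSO library of pair 4). It was lower with Ro in 3 of 4 pairs, by at most 0.50. In the same fit ELAVL1 changed by 0.011 (-0.44 to 0.46), IGF2BP3 by -0.10 (-0.53 to 0.33) and MSI1 by -0.13 (-1.06 to 0.81). Without that library these were 0.15, -0.14 and -0.20. With the block and all 4 pairs, IKZF2 was -0.18, ELAVL1 0.028, IGF2BP3 -0.13 and MSI1 -0.23. None of the 9 moved in the same direction in all 4 K562 pairs, beside 11.5% of all genes (6.84% higher and 4.65% lower).

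**Figure D3:**
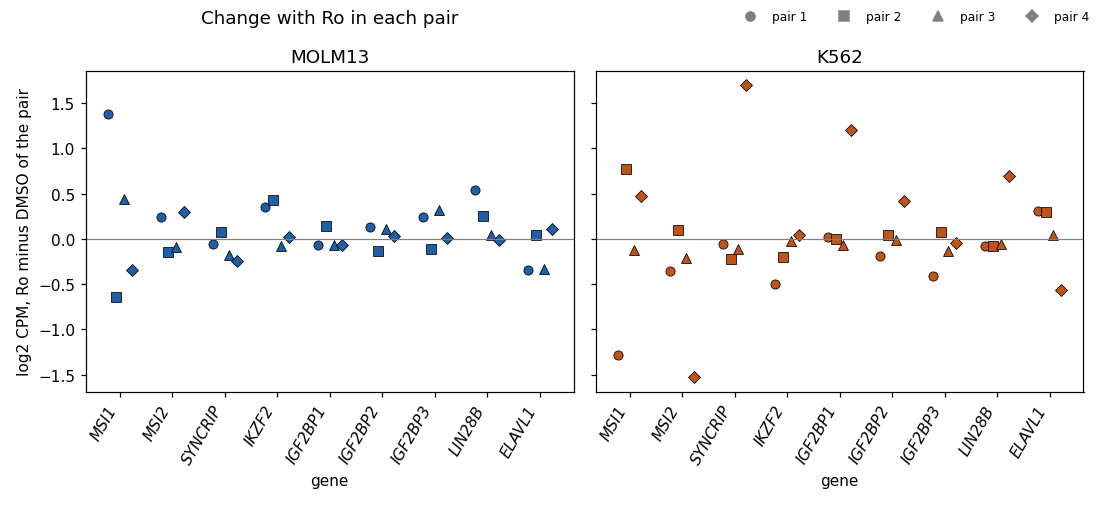
Log2 CPM with Ro minus log2 CPM with DMSO in each pair, for each gene, in MOLM13 (left) and K562 (right). Points scatter on both sides of 0 for every gene, and pair 4 of K562 gives the extreme values of MSI2 (-1.53), SYNCRIP (1.70), IGF2BP1 (1.20) and LIN28B (0.70).

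The change with Ro was compared between the lines as an interaction of line and treatment, in which 0 of the 9 and 0% of 16224 genes passed (edgeR; 218 genes under an unadjusted p of 0.05, 0 called by DESeq2 without the block and 3 with it). MSI2 had the largest difference, log2 -0.67 (95% interval -1.41 to 0.065, adjusted p = 1), and without the K562 DMSO library of pair 4 it was -0.28. The differences of the other members ran from -0.39 (IKZF2) to 0.19 (SYNCRIP), and these values are from the fit without the block. With each pair as a block they ran from -0.35 (IKZF2) to 0.39 (SYNCRIP). MSI2 was then -0.575 (95% interval -1.20 to 0.049).

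**Figure D4:**
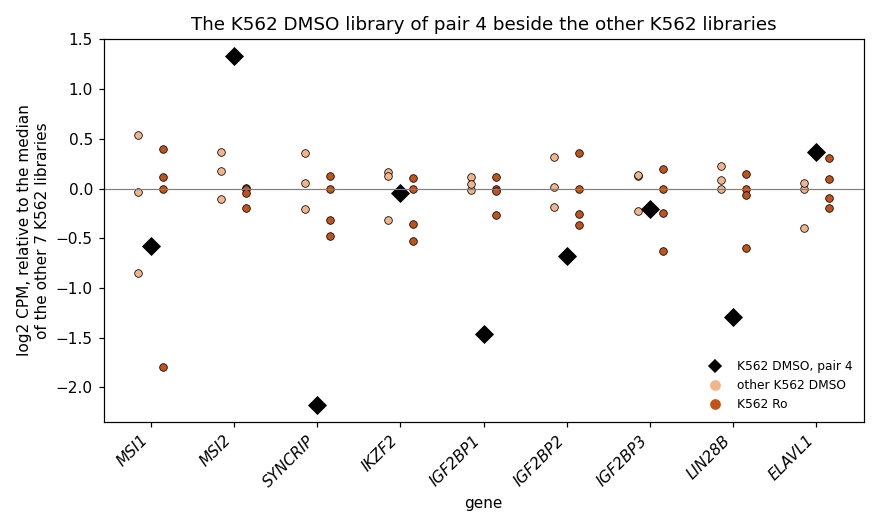
Log2 CPM of each gene in the 8 K562 libraries relative to the median of the 7 other than DMSO pair 4, which is drawn as black diamonds. For MSI2 and ELAVL1 the diamond lies above the other 7, for SYNCRIP, IGF2BP1, IGF2BP2 and LIN28B below them, and for MSI1, IKZF2 and IGF2BP3 among them.

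The K562 DMSO library of pair 4 differed from the median of the other 3 DMSO libraries by log2 1.15 for MSI2, -2.23 for SYNCRIP, -1.51 for IGF2BP1 and -1.38 for LIN28B. Across all genes 21.4% lay over 2-fold from that median, against 4 of the 9 members. What set this library apart was not tested.

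Some related genes changed with Ro in MOLM13 once the pair was a block, a fit in which 2.11% of all genes passed (0.938% higher and 1.17% lower). Among the Musashi targets CDKN1A rose (log2 0.68 ± 0.084, adjusted p = 8.32e-05, edgeR with the block) and MYC fell (-0.63 ± 0.13, adjusted p = 0.00868), and the other 5 did not pass. MYC was also the 1 mRNA to pass among the 7 described as bound by IGF2BP proteins. IKZF1 fell by 0.28 (adjusted p = 0.0443), and the other 3 Ikaros-family genes did not pass. Of the 26 RNA-binding and RNA-modifying genes CPEB4 rose (0.45, adjusted p = 0.0121) and CELF2, PTBP1 and HNRNPK fell (-0.29, -0.29 and -0.25). None of 12 LIN28 and let-7 genes and none of 10 Hu-family and AU-rich element binding genes passed. Without the block 0 genes of these lists passed, and in K562 and in the interaction 0 passed with or without it.

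The genes most like MSI2 across the 16 libraries, by Pearson correlation of log2 CPM after subtracting each line's mean, were COL26A1 (0.967), DHRSX (0.966), LACE1 (0.966), DGKB (0.959) and TNS3 (0.955) of 14320 genes. The libraries share their scaling and include the K562 DMSO library of pair 4. The order rests on that library: without it the 5 genes most like MSI2 were DHRSX (0.928), STAU2 (0.914), WDR33 (0.91), DYM (0.908) and PID1 (0.903). WDR33 had a coefficient of -0.378 and rank 10242 over all 16 libraries, and COL26A1, LACE1, DGKB and TNS3 went to ranks 6, 10, 22 and 33 without that library. Of the other members, IGF2BP1 had a coefficient with MSI2 of -0.868 over all 16 libraries and -0.475 without that library. SYNCRIP had -0.835 and -0.351, IGF2BP2 -0.562 and -0.040, and LIN28B -0.166 and 0.738. For IGF2BP3 they were 0.283 and 0.598, for MSI1 0.119 and 0.41, for ELAVL1 0.249 and -0.2, and for IKZF2 0.234 and 0.34.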

How the data were processed

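RNA of frozen MOLM13 and K562 pellets was read from 3′ ends (QuantSeq 3′ mRNA FWD, ERCC spike-ins added). The authors deposited raw counts per gene for 25221 genes, of which 1425 carry no symbol and 0 are spike-ins. Submitters' processing notes name hg38, Trim Galore, STAR 2.5.3a and SAMtools 1.5. The counting program, annotation and strand setting are not given in the sources used here. Totals ran from 3143129 to 43571060 counts.

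Counts were tested with edgeR 4.0.16 (quasi-likelihood, TMM, R 4.3.3) on genes that reached 10 counts in 4 or more libraries of the fit, fitted to the 8 libraries compared or, for the interaction, all 16. P-values were adjusted by Benjamini-Hochberg over all genes, at a threshold of 0.05. Scripts were tested on simulated data. Members and gene lists were chosen with earlier results of these data known, and all 9 members are described. Related genes are named from those past the test with the smallest p in each list and direction, and not all of these are named. For likeness the 5 genes with the highest coefficient are named.

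Same-numbered libraries deviated together within each line (correlations 0.384 to 0.831 in MOLM13 and 0.11 to 0.417 in K562, all over 0.1), so the pair was also fitted as a block. No libraries were alike within sampling noise. Alternatives were DESeq2 1.42.0, other scalings and count filters, the block, and leaving out libraries (for the related gene lists chosen after seeing the data). The 3′ UTRs are the longest per gene in GENCODE v29 basic transcripts.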

Additional observations from a re-analysis of the deposited data

Results flagged for a closer look

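Among 36 groups of 4 libraries (9 genes in 4 groups), 3 held a library whose gap to its nearest neighbour, divided by the group's range, passed Dixon's 95% critical value, and chance alone flags about 1 in 20 groups. IGF2BP1 was 70.6 CPM in the K562 DMSO library of pair 4, where the nearest of the other 3 held 193 CPM. MSI2 was 90.6 CPM in the MOLM13 DMSO library of pair 4, where the nearest held 140 CPM. SYNCRIP was 536.5 CPM in that same MOLM13 library, where the nearest held 394.6 CPM.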

How the results depend on the processing

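Of the line differences, LIN28B and IGF2BP1 passed the test in each alternative run. SYNCRIP did so between Ro libraries but not between DMSO libraries. The 9 genes passed it in none of the alternatives run for the Ro comparisons and the interaction. In K562 with DMSO, pairs 2 and 4 held 3143129 and 4383241 counts, and MSI1 was too low to be tested in some fits. Causes of the changes that follow were not tested.

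With the replicate block 317 genes were called in MOLM13, DESeq2 called 1 without and 266 with the block, and leaving out libraries, or pairs under the block, gave 0 to 358. In K562 DESeq2 with the block called 2 genes and pairs 1 and 3 with the block called 418, and in the interaction DESeq2 with the block called 3. Leaving out libraries gave 3233 to 7071 calls between DMSO libraries and 4875 to 9120 between Ro libraries. Across lines same-numbered libraries shared only a number (mean correlations -0.044 with DMSO and -0.080 with Ro), and that block called 5738 and 7523 genes and gave IKZF2 with DMSO an adjusted p of 0.0559 and ELAVL1 with Ro one of 0.0513 (edgeR). The block ended no other call of the 9 genes.

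All values that follow are log2 changes that turned sign, none past the test. In MOLM13 with Ro, IGF2BP1 was 0.00037 with the block, 0.024 with upper-quartile and 0.053 with total-count scaling, and 0.014 with a minimum of 50 counts. In K562 with Ro, pairs 1 and 3 gave SYNCRIP -0.10, IGF2BP1 -0.043, IGF2BP2 -0.11 and LIN28B -0.086. Without pair 4, chosen after seeing the data, these were -0.13, -0.015, -0.023 and -0.067. LIN28B was -0.0018 with upper-quartile and -0.0011 with total-count scaling, and ELAVL1 was -0.065, -0.083 and, with a minimum of 50 counts, -0.019. In the interaction, without pair 4 of K562 SYNCRIP was -0.026 and IGF2BP2 -0.064. IGF2BP2 was -0.064 with upper-quartile and -0.082 with total-count scaling and -0.0091 with a minimum of 50 counts, and ELAVL1 was -0.035 with total-count scaling. Between lines with total-count scaling MSI1 was 0.031 and IGF2BP3 0.079 with DMSO, and MSI2 0.012 with Ro.

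Leaving out libraries gave log2 ranges that crossed 0. In MOLM13 with Ro these were MSI1 -0.24 to 0.60, MSI2 -0.058 to 0.17, SYNCRIP -0.16 to 0.029, IGF2BP1 -0.055 to 0.065, IGF2BP3 -0.20 to 0.44, LIN28B -0.030 to 0.54 and IKZF2 -0.029 to 0.34. In K562 with Ro they were MSI1 -0.39 to 0.18, SYNCRIP -0.22 to 0.47, IGF2BP1 -0.077 to 0.40, IGF2BP2 -0.13 to 0.21, IGF2BP3 -0.26 to 0.011, LIN28B -0.20 to 0.17 and ELAVL1 -0.11 to 0.22. In the interaction they were MSI1 -0.71 to 0.12, SYNCRIP -0.12 to 0.58, IGF2BP1 -0.061 to 0.42, IGF2BP2 -0.14 to 0.18, IGF2BP3 -0.52 to 0.090 and LIN28B -0.50 to 0.060. Between lines they were MSI2 -0.14 to 0.53 and IGF2BP3 -0.52 to 0.014 with DMSO, and MSI1 -0.89 to 0.046 with Ro.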
